A study of Mus musculus with 4 samples.

Results

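The Ikaros zinc finger genes Ikzf1, Ikzf2, Ikzf3 and Ikzf5, the germinal center repressor gene Bcl6, the plasma cell repressor gene Prdm1, and the B cell regulators Bcl11a, Zbtb7a, Zeb2 and Mef2c were followed in splenic B cells with and without the H3K36 methyltransferase NSD1. They are 10 genes of the 55401 listed in the deposited counts, taken by gene symbol, and were chosen with earlier results of these data known. The data are 4 RNA-seq libraries of B220+ cells that were sorted to high purity out of spleens of C57BL/6J mice. The control group, NSD1 B WT, is Mb1-Cre+ NSD1+/+, the deleted group, NSD1 B KO, is Mb1-Cre+ NSD1fl/fl, and each has 2 libraries. Both groups carry Mb1-Cre, which is driven by the Cd79a locus and acts from an early stage of B cell development, so the comparison is between Cre-carrying cells with floxed and with wild-type NSD1. The study describes littermate controls and young adult mice of both sexes, and the labels give neither age nor sex nor immunization for these libraries. Nothing in the labels says that the 2 libraries of a genotype come from separate mice, so p-values measure only the spread between these libraries, which may be technical.

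Ikaros proteins bind DNA through zinc fingers near one end and pair with each other through fingers at the other end. They recruit the NuRD remodelling complex and other corepressors, and are known for steering lymphocyte development. BCL6 represses DNA damage, migration and differentiation genes and keeps B cells in the germinal center, whereas Blimp-1, the product of Prdm1, shuts down the B cell program and drives plasma cell formation. BCL6 and Blimp-1 are known to repress each other.

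Counts on genes ranged from 6769118 to 7566834 per library, and libraries of a genotype differed by more than counting noise, with a mean chi-square per gene of 2.99 for NSD1 B WT against 3.86 for NSD1 B KO. Values are given below as CPM, counts per 1000000 counts on genes with library sizes adjusted by the TMM method, and a gene was called past the threshold when its adjusted p was below 0.05 and its fold change above 1.2 in edgeR's quasi-likelihood test over 11657 genes. The targeted gene, Nsd1, had 497 and 480 counts in NSD1 B WT against 284 and 280 in NSD1 B KO, which is a fitted log2 fold change of -0.74 (standard error, SE, 0.11, adjusted p = 8.22e-08). These counts were summed over the gene, so they include exons outside the deleted ones. In this comparison 78.2% of all tested genes were past the threshold, 37.1% higher and 41.1% lower in NSD1 B KO, and in 88.1% the libraries of the genotypes did not overlap. The median log2 fold change over all tested genes was -0.10, with an interquartile range of -1.31 to 1.01.

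Of the 10 genes, 9 passed the filter on low counts and were tested, and Ikzf2 had no count. Past the threshold, 5 genes were higher in NSD1 B KO (Ikzf5, Zeb2, Bcl6, Prdm1 and Mef2c) and 2 were lower (Ikzf3 and Bcl11a). This is 77.8% of the 9 tested genes, close to the 78.2% among all tested genes, so the share is not a result about these genes. By the Wald test of DESeq2, 6 passed (5 higher, 1 lower), where 72% of all tested genes did (34.7% higher, 37.3% lower). At an adjusted p below 1e-05 and a log2 fold change above 0.5, which are stricter limits, 5 passed (4 higher, 1 lower), where 57.2% of all did (27.4% higher, 29.7% lower). With the replicate number as a block, 7 passed (5 higher, 2 lower), where 76.9% of all did (36.5% higher, 40.4% lower). Ikzf1 and Zbtb7a were not past the threshold. The median log2 fold change of the 9 genes was 0.91. Between the libraries of a genotype their levels differed by 0.009 to 0.27 on the log2 scale. For each of the 9 genes the libraries of the genotypes did not overlap, as for most tested genes.

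**Figure D1:**
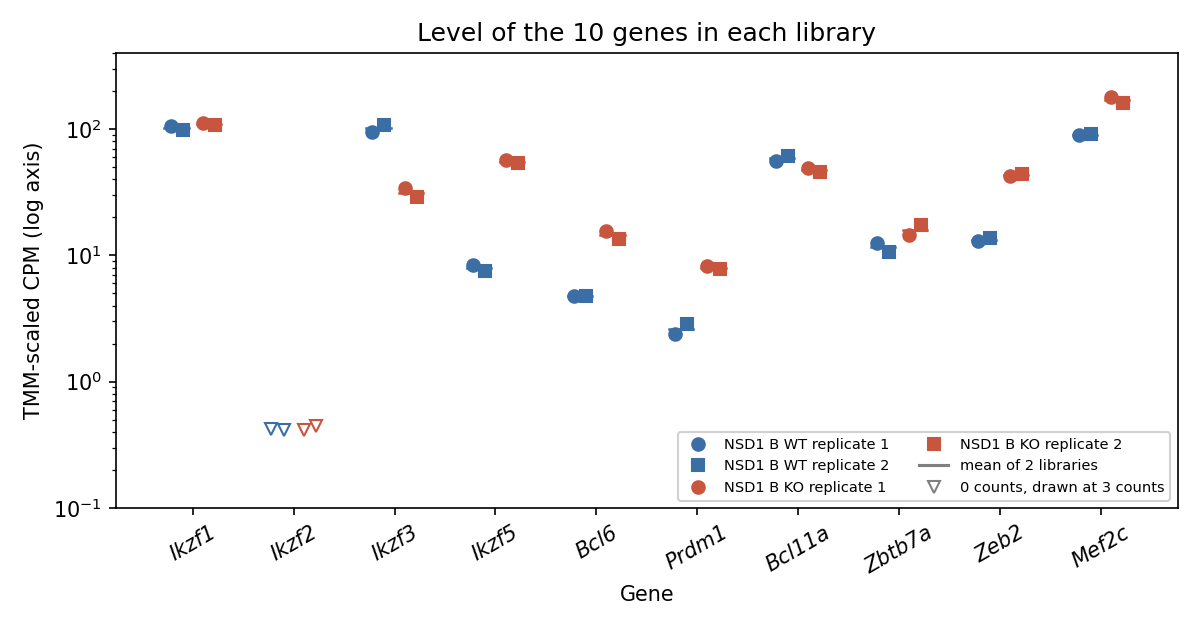
TMM-scaled CPM (vertical log axis) of each of the 10 genes (horizontal axis) in the 2 NSD1 B WT libraries (blue) and the 2 NSD1 B KO libraries (red), with a line at the mean of 2 libraries. Ikzf3 fell from 95.5 and 107 CPM to 33.9 and 29.0, Ikzf5 rose from 8.39 and 7.52 to 56.6 and 53.5, and Ikzf2, with 0 counts, is drawn at the level of 3 counts per library.

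Ikzf1 (ENSMUSG00000018654.17) encodes Ikaros, the founding member of the family, and is found at chr11:11685003-11772926 (plus strand; mm10, as for all positions here). It had 759 and 725 counts in NSD1 B WT against 806 and 729 in NSD1 B KO, or 106, 99.1, 112 and 108 CPM. The libraries of the genotypes lay close together without overlapping. The Ikzf1 log2 fold change was 0.10 (95% interval -0.08 to 0.29, adjusted p = 0.306, edgeR's quasi-likelihood test), and it turned to -0.060 once the trend of fold changes with the length and GC content of exons was taken out. At 17.1 to 19.4 CPM per kb of exon over the 4 libraries, Ikzf1 had the highest level per length of the 10 genes in both genotypes. This rank divides counts by all exon bases, which makes it uncertain against Ikzf5, as described below.

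Ikzf3 (ENSMUSG00000018168.8) encodes Aiolos, the family member of mature B cells, and is found at chr11:98464902-98546031 (minus strand). It had 683 and 784 counts in NSD1 B WT against 244 and 195 in NSD1 B KO, or 95.5, 107, 33.9 and 29.0 CPM. Both NSD1 B KO libraries were far below both NSD1 B WT libraries. Ikzf3 was 3.22-fold lower in NSD1 B KO, with a log2 fold change of -1.69 (SE 0.11, adjusted p = 2.20e-18, edgeR's quasi-likelihood test). Among all tested genes, 39.8% had a change of this size or larger, up or down.

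The ratio of Ikzf3 to Ikzf1 within a library does not depend on how the libraries are scaled. Per kb of exon, Ikzf3 stood at 0.594 and 0.714 of the level of Ikzf1 in NSD1 B WT and at 0.200 and 0.177 in NSD1 B KO. Ikzf3 was second to Ikzf1 in NSD1 B WT, at 10.9 and 12.2 CPM per kb. In NSD1 B KO it came after Mef2c, Ikzf5 and Bcl11a as well, at 3.31 to 3.87 CPM per kb, a range that overlapped with Bcl11a at 3.48 to 3.70.

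Ikzf5 (ENSMUSG00000040167.16) encodes Pegasus, a distant member of the family, and is found at chr7:131388652-131410521 (minus strand). It had 60 and 55 counts in NSD1 B WT against 408 and 360 in NSD1 B KO, or 8.39, 7.52, 56.6 and 53.5 CPM. Ikzf5 was 6.91-fold higher in NSD1 B KO, with a log2 fold change of 2.79 (SE 0.16, adjusted p = 2.00e-20, edgeR's quasi-likelihood test), the largest change among the 9 genes. A change of this size or larger, up or down, was seen in 29.6% of all tested genes.

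The counts of Ikzf5 are uncertain, because 4652 of its 5721 bp of exon also lie in exons of Pstk, a kinase gene of selenocysteine synthesis on the opposite strand, and the strand setting of the counting is not given in the sources used here. Pstk had 569 and 499 counts in NSD1 B WT against 680 and 624 in NSD1 B KO. Its log2 fold change was 0.34 (SE 0.10, adjusted p = 0.00184, edgeR's quasi-likelihood test), in the same direction and much smaller than that of Ikzf5. Per kb of exon, Ikzf5 stood at 0.0798 and 0.0766 of the level of Ikzf1 in NSD1 B WT and at 0.511 and 0.499 in NSD1 B KO. These levels per kb use all 5721 bp, so they and the rank of Ikzf5 by them are uncertain as well.

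Ikzf2 (ENSMUSG00000025997.13), the gene of Helios, is found at chr1:69531214-69687245 (minus strand). It had 0 counts in each of the 4 libraries, which allows up to 0.410 to 0.445 CPM per library, counting error only. Helios is best known from regulatory T cells. Ikzf4, the remaining gene of the family, also had 0 counts in all 4 libraries.

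Bcl6 (ENSMUSG00000022508.5) is found at chr16:23965052-23988852 (minus strand). It had 34 and 35 counts in NSD1 B WT against 112 and 91 in NSD1 B KO, or 4.75, 4.78, 15.5 and 13.5 CPM. The NSD1 B WT libraries were almost equal, and both NSD1 B KO libraries were well above them. Bcl6 was 3.04-fold higher in NSD1 B KO, with a log2 fold change of 1.61 (SE 0.26, adjusted p = 3.20e-07, edgeR's quasi-likelihood test).

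Prdm1 (ENSMUSG00000038151.13) is found at chr10:44437177-44528501 (minus strand). It had 17 and 21 counts in NSD1 B WT against 59 and 52 in NSD1 B KO, or 2.38, 2.87, 8.19 and 7.72 CPM, the lowest level per length among the genes with counts. Prdm1 was 3.02-fold higher in NSD1 B KO, with a log2 fold change of 1.59 (SE 0.34, adjusted p = 3.70e-05, edgeR's quasi-likelihood test). Its interval of 0.91 to 2.27 is the widest of the 9 genes, at these low counts.

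The genes of both repressors thus rose together and by nearly the same factor. Per kb of exon, the ratio of Bcl6 to Prdm1 was 1.67 and 1.39 in NSD1 B WT against 1.58 and 1.46 in NSD1 B KO. The NSD1 B KO ratios lay inside the range of the NSD1 B WT ratios. In bulk RNA, more cells of a type and more RNA per cell cannot be told apart, and these values do not say whether the same cells held both transcripts.

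The stretches before the starts of Bcl6 and Prdm1 are shown because the genes of these opposed repressors rose side by side and their windows contain letters of motifs known for proteins of this group. RefSeq promoters of GRCm38.p6, the build of mm10, matched 8 of the 10 genes, with 15 starts. The 250 bases before each start were searched on both strands for TGGGAA (Ikaros), TTCCTNGAA (BCL6), AGNGAAAG (Blimp-1), CTA and TAG separated by any 4 bases (MEF2) and CAGGTG (ZEB). Capitals mark the matches, and positions count back from -1 at the base before the start. The window of Bcl6 is chr16:23981284-23981533 on the minus strand, within an intron of the GENCODE M21 gene, and that of Prdm1 is chr10:44458749-44458998 on the minus strand, likewise within an intron.
Bcl6: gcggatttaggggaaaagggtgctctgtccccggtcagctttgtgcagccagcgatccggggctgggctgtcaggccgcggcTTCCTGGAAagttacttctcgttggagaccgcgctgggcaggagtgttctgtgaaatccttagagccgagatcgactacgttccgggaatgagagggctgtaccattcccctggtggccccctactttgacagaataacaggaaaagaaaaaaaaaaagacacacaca
Prdm1: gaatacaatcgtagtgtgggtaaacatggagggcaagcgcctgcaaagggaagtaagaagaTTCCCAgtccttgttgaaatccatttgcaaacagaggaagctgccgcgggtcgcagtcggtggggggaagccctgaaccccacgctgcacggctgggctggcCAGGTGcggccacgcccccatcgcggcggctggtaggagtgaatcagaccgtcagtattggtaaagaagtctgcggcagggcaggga

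In the Bcl6 window the capitals are the BCL6 letters TTCCTGGAA, at positions -168 to -160, a match found in 1.31% of all 32851 promoter windows. The other Bcl6 start had no match to any of the 5 motifs. In the Prdm1 window they are the Ikaros letters on the opposite strand, at -189 to -184 (21.6% of all windows), and the ZEB letters at -87 to -82 (17.2%). Bcl11a had the Ikaros letters at -161 to -156, and overlapping windows of Zeb2 shared 1 match to the Blimp-1 letters (7.30% of all windows). MEF2 letters were found in 0 of the 15 windows and in 3.20% of all windows. These are matches of letters only, and no binding was measured.

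Zeb2 (ENSMUSG00000026872.18), a zinc finger repressor known from late stages of lymphoid and myeloid cells, is found at chr2:44983632-45117395 (minus strand). It had 93 and 100 counts in NSD1 B WT against 305 and 297 in NSD1 B KO, or 13.0, 13.7, 42.3 and 44.1 CPM. Both NSD1 B KO libraries stood well above both NSD1 B WT libraries. Zeb2 was 3.24-fold higher, with a log2 fold change of 1.69 (SE 0.16, adjusted p = 1.21e-13, edgeR's quasi-likelihood test), which came down to 1.11 after the same trend correction. Zeb2 has the longest exons of the 10 genes, 19942 bp. Its antisense partner Zeb2os, which shares 653 bp of exon with it, had 3 counts in 1 NSD1 B WT library and 0 in the others.

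Mef2c (ENSMUSG00000005583.16), a transcription factor needed for B cell survival and proliferation after receptor stimulation, is found at chr13:83504034-83667080 (plus strand). It had 637 and 665 counts in NSD1 B WT against 1282 and 1076 in NSD1 B KO, or 89.0, 90.9, 178 and 160 CPM. Mef2c was 1.88-fold higher, with a log2 fold change of 0.91 (SE 0.09, adjusted p = 1.13e-12, edgeR's quasi-likelihood test). After the trend correction it was 0.43 and still past the threshold.

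Bcl11a (ENSMUSG00000000861.15), a zinc finger repressor needed for early B cells and a known partner of BCL6, is found at chr11:24078056-24174123 (plus strand). It had 399 and 447 counts in NSD1 B WT against 351 and 309 in NSD1 B KO, or 55.8, 61.1, 48.7 and 45.9 CPM. The libraries did not overlap, but the gap was small. Its log2 fold change was -0.30 (SE 0.11, adjusted p = 0.0130, edgeR's quasi-likelihood test), in the range of 9.49e-11 to 0.148 over the alternatives. Without NSD1 B WT replicate 2 it was -0.21 (adjusted p = 0.148) and without NSD1 B KO replicate 2 it was -0.26 (adjusted p = 0.0580), in both cases not past the threshold. By the Wald test of DESeq2 it was not past the threshold either (adjusted p = 0.0908). After the trend correction the value was -0.74. An antisense gene, 4930538E20Rik, shares 316 bp of exon with Bcl11a and had 87, 73, 115 and 82 counts.

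Zbtb7a (ENSMUSG00000035011.15) encodes LRF, a BTB zinc finger repressor of the same class as BCL6, and is found at chr10:81135220-81152995 (plus strand). It had 90 and 78 counts in NSD1 B WT against 104 and 116 in NSD1 B KO, or 12.6, 10.7, 14.4 and 17.2 CPM. Its log2 fold change of 0.44 (95% interval 0.02 to 0.87) was not past the threshold (adjusted p = 0.0530, edgeR's quasi-likelihood test), in the range of 0.0119 to 0.224 over the alternatives. Without NSD1 B WT replicate 1 it was 0.60 (adjusted p = 0.0421) and without NSD1 B KO replicate 1 it was 0.56 (adjusted p = 0.0244), and both were past it. It was also past it with size factors of DESeq2 or a looser filter (adjusted p = 0.0491 in both) and after the trend correction (0.58, adjusted p = 0.0119). Zbtb7a was 2.61 and 2.19 times the level of Bcl6 per kb of exon in NSD1 B WT against 0.914 and 1.25 times in NSD1 B KO.

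**Figure D2:**
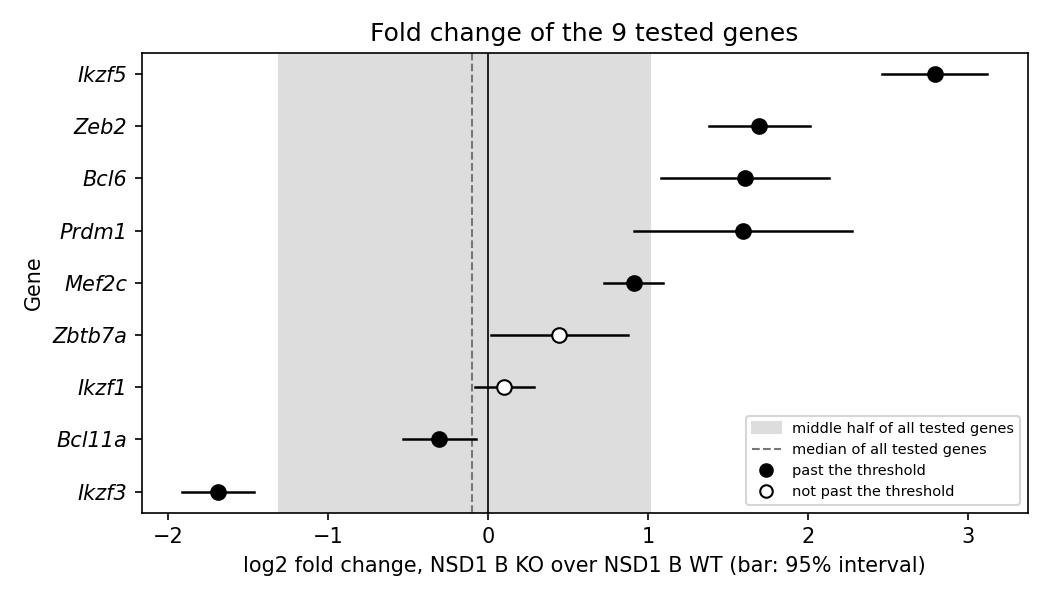
Log2 fold change between genotypes, NSD1 B KO over NSD1 B WT (horizontal axis) for the 9 tested genes (vertical axis), with 95% intervals as bars, filled points past the threshold and open points not, over the interquartile range of all tested genes (grey, -1.31 to 1.01) and their median (dashed, -0.10). Ikzf5, Zeb2, Bcl6 and Prdm1 lie above the grey band and Ikzf3 below it, whereas Mef2c, Zbtb7a, Ikzf1 and Bcl11a lie within it.

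Ordered by level per kb of exon, the genes in NSD1 B WT were Ikzf1, Ikzf3, Mef2c, Bcl11a, Zbtb7a, Ikzf5, Bcl6, Zeb2 and Prdm1, and no neighbours in this order overlapped between libraries. In NSD1 B KO the order was Ikzf1, Mef2c, Ikzf5, Bcl11a, Ikzf3, Zbtb7a, Bcl6, Zeb2 and Prdm1. There Bcl11a and Ikzf3 overlapped, and so did Zbtb7a, Bcl6 and Zeb2 with each other, at 2.02 to 2.53 CPM per kb. Mef2c reached 10.2 and 11.3 CPM per kb in NSD1 B KO and Ikzf5 9.34 and 9.90, against 5.67 and 5.78 for Mef2c and 1.31 to 1.47 for Ikzf5 in NSD1 B WT. The place of Ikzf5 in both orders is uncertain, because most of its exon bases are shared with Pstk. Zeb2 was at 0.652 and 0.685 CPM per kb in NSD1 B WT, below Bcl6, and at 2.12 and 2.21 in NSD1 B KO, where its rank against Bcl6 and Zbtb7a is not resolved.

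**Figure D3:**
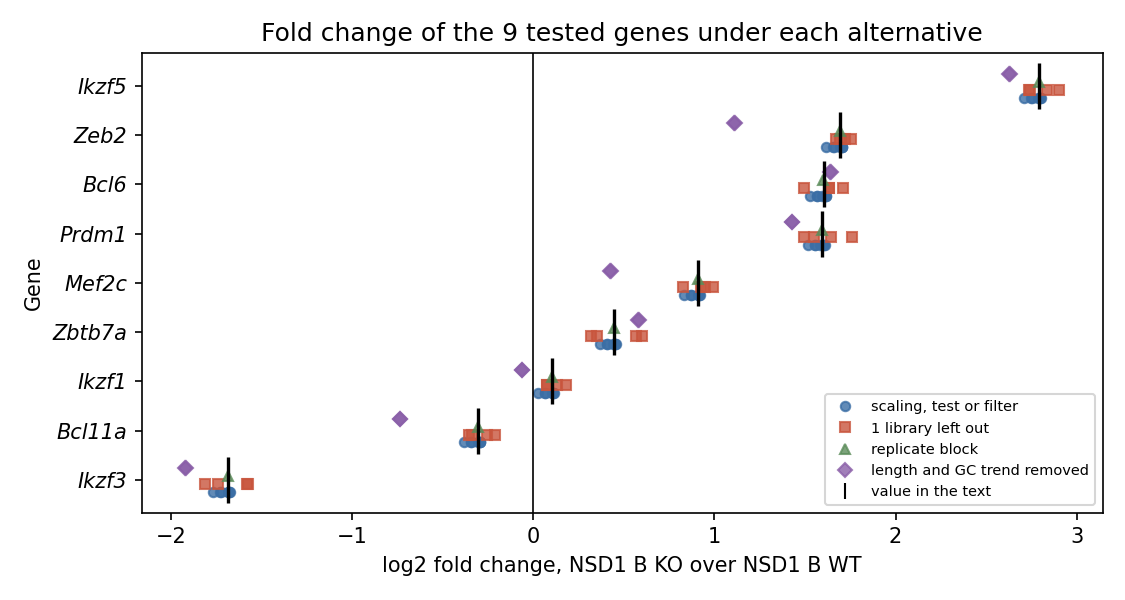
Log2 fold change between genotypes, NSD1 B KO over NSD1 B WT (horizontal axis) of the 9 tested genes (vertical axis) as given in the text (black bar) and under other scalings, tests and filters, with 1 library left out, with the replicate number as a block, and after correction for the length and GC trend. Most values stay close to the bar, those after that correction lie farthest from it at 1.11 for Zeb2, 0.43 for Mef2c and -0.74 for Bcl11a, and only Ikzf1 crosses 0.

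Lists of relatives, partners and targets were counted in the same fit, and their shares past the threshold, from 72.7% to 85.7%, were near the 78.2% of all tested genes. Of 16 relatives, 12 were tested, 6 rose and 3 fell, with a median log2 fold change of 0.36, against -0.10 for all tested genes. Mef2a, a paralog of Mef2c, rose 2.92-fold from 161 and 158 counts to 499 and 399. Bach1, a repressor of heme-responsive genes, rose from 17 and 15 counts to 67 and 86 (log2 fold change 2.31). Zeb1, the paralog of Zeb2, fell from 66 and 81 counts to 13 and 9 (log2 fold change -2.67, adjusted p = 4.08e-09, edgeR's quasi-likelihood test), opposite to Zeb2.

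Some relatives were counted in 1 genotype only, as were 2203 of the 11657 tested genes. Patz1, a BTB zinc finger gene, had 320 and 292 counts in NSD1 B WT against 0 in both NSD1 B KO libraries, at least 197-fold lower, taking 3 counts over the group as the limit for a count of 0. Bcl6b, the paralog of Bcl6, was not counted in NSD1 B WT but had 37 and 32 counts in NSD1 B KO, making it at least 23.8-fold higher. These limits cover counting error only.

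The corepressors that bind BCL6, directly or as subunits of the same complexes, were mixed. Of 12 in the list, 11 were tested, 2 rose and 6 fell, with a median log2 fold change of -0.30. Bcor, the corepressor that binds the BTB domain of BCL6, was 2.01-fold lower, from 208 and 159 counts to 96 and 80. Ctbp1 was 2.01-fold lower as well. Pcgf1, a Polycomb subunit that works with BCOR, rose 15.8-fold from 19 and 30 counts to 411 and 337, and Gps2, a subunit of an NCoR corepressor complex, rose 2.37-fold.

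Among the NuRD, SIN3 and CtBP genes, the partners of Ikaros and Aiolos, 13 of 16 were tested, 3 rose and 7 fell (median log2 fold change -0.46). Chd4, the remodelling ATPase of NuRD, fell from 373 and 337 counts to 111 and 94, 3.34-fold lower (log2 fold change -1.74, adjusted p = 1.58e-14, edgeR's quasi-likelihood test). Sin3a was 2.84-fold lower and its paralog Sin3b 1.89-fold higher. Hdac2, a deacetylase of the NuRD and SIN3 complexes, was 3.33-fold higher.

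Genes known to be repressed by BCL6 were split evenly. Of 15, 14 were tested, 6 rose and 6 fell, with a median log2 fold change of 0.24. Id2 rose 9.41-fold, from 76 and 70 counts to 703 and 623. The checkpoint kinase genes were among those that fell: Atr was 6.66-fold lower, and Chek1 had 76 and 88 counts in NSD1 B WT against none in NSD1 B KO, making it at least 52.6-fold lower.

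Of the 12 genes known to be under Ikaros control in B cell precursors, 5 had no count in any library (Igll1, Vpreb1, Dntt, Rag1 and Rag2) and 7 were tested, of which 1 rose and 5 fell (median log2 fold change -0.82). Ccnd3, a D-type cyclin gene, rose 6.21-fold, from 126 and 119 counts to 749 and 718. Foxo1 was 2.11-fold lower, and Syk, a kinase of the B cell receptor, 1.76-fold lower.

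Genes known to be repressed by Blimp-1 and those of the plasma cell program moved in both directions. Of the 6 Blimp-1 targets, all were tested, 1 rose (Id3, 4.13-fold) and 4 fell, with a median log2 fold change of -1.14. Pax5, which keeps B cell identity, was 9.76-fold lower, from 279 and 342 counts to 30 and 31 (adjusted p = 7.31e-20, edgeR's quasi-likelihood test). Of the 7 plasma cell genes, 6 were tested, 1 rose (Irf4, 1.25-fold) and 4 fell (median log2 fold change -0.41), among them Jchain (1.45-fold lower) and Xbp1 (1.21-fold lower). The rise of Irf4 was not past the threshold with scaling by library size alone, by DESeq2 or by limma-voom. Neither was it after the trend correction or at the stricter limits. Creb3l2 had 18 and 36 counts in NSD1 B WT against none in NSD1 B KO, making it at least 17.3-fold lower. Sdc1, the defining surface marker of plasma cells, had 0 counts in all 4 libraries. In the plasma cell list 5 genes were past the threshold, and 3 without NSD1 B WT replicate 1 and also without NSD1 B KO replicate 1.

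Of the 14 germinal center B genes, 5 had no count in any library and 5 passed the filter, so most could not be compared. Of the 5, 4 had 0 counts in 1 genotype, as did 2203 of the 11657 tested genes. Fas was counted 43 and 59 times and Ezh2 40 and 20 times in NSD1 B WT, and both had 0 counts in NSD1 B KO, at least 32.7-fold and 19.3-fold lower. Rgs13, a regulator of chemokine signals in the germinal center, was not counted in NSD1 B WT but had 163 and 124 counts in NSD1 B KO, making it at least 99-fold higher. The median fitted log2 fold change of the 5 was -7.89, and with such genes at their limits it was -4.27. This median turned positive under other filters, to 0.21 over 9 genes with at least 1 count in any library and to 0.16 for the 1 gene with at least 1 CPM in all 4 libraries, so it gives no stable direction for the list. Lists share some genes, such as Irf4, which is in both the plasma cell list and the list of BCL6 targets.

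**Figure D4:**
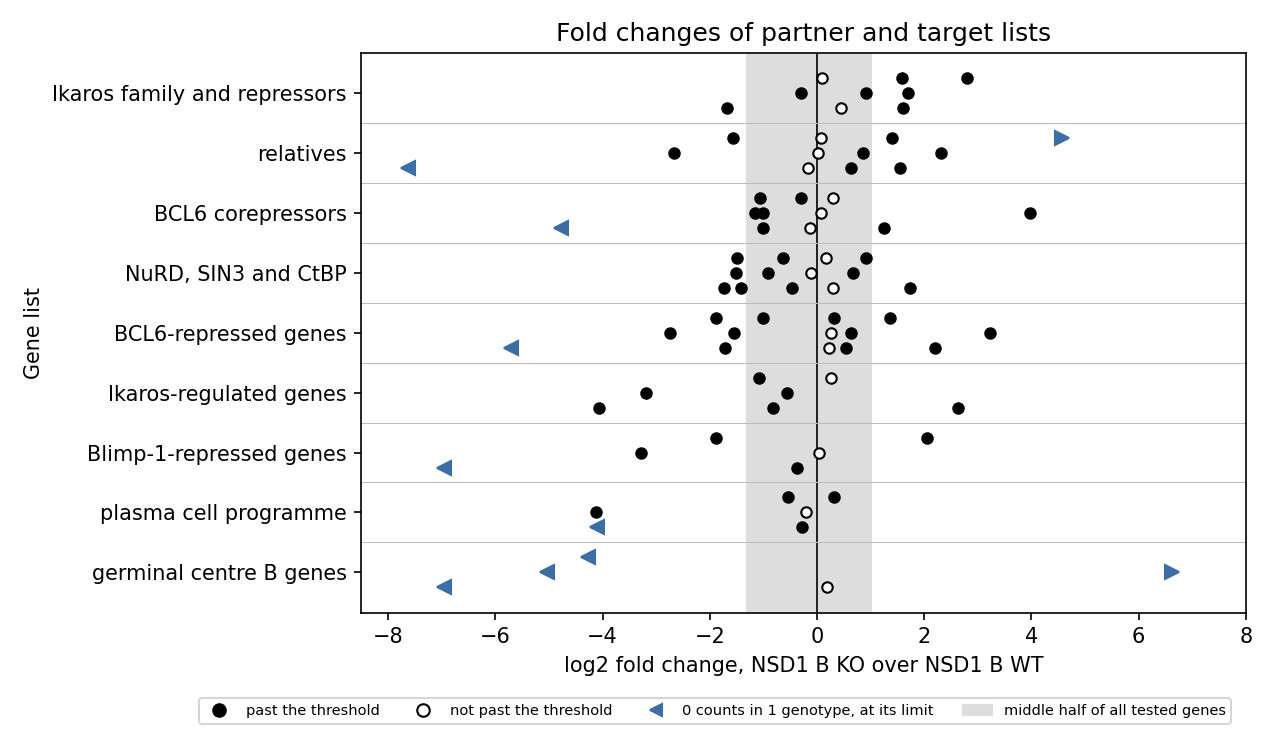
Log2 fold change between genotypes, NSD1 B KO over NSD1 B WT (horizontal axis) for the tested genes of the 9 lists (vertical axis), filled where past the threshold, with triangles at the limit for genes with 0 counts in 1 genotype and the interquartile range of all tested genes in grey. In each list genes lie on both sides of 0, Patz1 is at the far left of the relatives, and 4 of the 5 germinal center B genes are triangles.

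The sorted cells carried the defining genes of B cells in all 4 libraries, with a summed level of 12570 and 12790 CPM in NSD1 B WT against 11090 and 12080 in NSD1 B KO. Most of this sum is Cd79b, at a mean of 6817 CPM in NSD1 B WT against 8149 in NSD1 B KO. Of these 7 markers 5 fell and 0 rose past the threshold, and all had counts. Those that fell include Cd79a (2.52-fold lower), Ms4a1 (1.49-fold lower) and Pax5 (9.76-fold lower). The markers of myeloid cells, in which Zeb2 and Mef2c are also used, summed to 4564 and 4668 CPM in NSD1 B WT against 5727 and 6075 in NSD1 B KO, with 5 of 7 higher and 2 lower in NSD1 B KO and none at 0 throughout. Most of this sum is Lyz2, and Csf1r rose from 23 and 27 counts to 375 and 335. The 2 lower markers were Itgam, from 487 and 615 counts to 273 and 334, and S100a8, from 39 and 28 to 0. The erythroid markers, with Hbb-bs, Hba-a1 and Alas2 among them, summed to 23.4 and 25.7 CPM in NSD1 B WT against 1247 and 1500 in NSD1 B KO, with 3 of 4 higher and the other at 0 in all libraries. Their part in the rise of Ikzf5, Bcl6, Prdm1, Zeb2 and Mef2c was not tested.

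Of the markers of plasmacytoid dendritic cells, which express Zeb2 and Bcl11a, 2 of 5 rose, with sums of 155 and 157 CPM in NSD1 B WT against 226 and 238 in NSD1 B KO, and the defining gene Siglech had 0 counts in all libraries. Conventional dendritic cell markers had 0 counts for 4 of 5 genes and summed to 0 CPM in NSD1 B WT and 3.86 and 4.997 in NSD1 B KO. Markers of T cells, in which Ikzf1, Ikzf3 and Prdm1 are also used, summed to 34.4 and 37.0 CPM in NSD1 B WT and 50.3 and 52.3 in NSD1 B KO, with 2 of 7 higher, 2 lower, and Cd4 and Cd8a at 0. NK cell markers summed to 56.5 and 59.9 CPM in NSD1 B WT and 83.2 and 86.3 in NSD1 B KO, with 2 of 4 higher, 1 lower and Ncr1 at 0. Markers of plasma cells, which express Prdm1, are all in the plasma cell list above and summed to 213 and 229 CPM in NSD1 B WT against 161 and 166 in NSD1 B KO, with 2 of 3 lower and Sdc1 at 0, opposite to the change of Prdm1. The part of these cells in the changes was not tested.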

How the data were processed

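RNA of sorted B220+ splenic B cells was measured in 4 libraries, grouped by the genotype in their labels. Whole-number counts for each gene, not normalized, were deposited by the authors. Their methods name mapping to mm10 with Bowtie2, and the FPKM from Cufflinks that they describe were not used here. Which program counted reads, with which strand setting and which annotation, is not given in the sources used here. Rows that name no gene stayed out of library sizes: reads on no feature (44.3% to 44.6% of each file), ambiguous reads (2.21% to 2.41%) and reads not uniquely aligned (11.2% to 13.2%). Identifiers were matched without their version to GENCODE M21 (99.5% of 55401), which gave positions and exon lengths.

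Counts were scaled by TMM, filtered by filterByExpr (minimum count 10, minimum total 15) and tested in edgeR 4.0.16 (R 4.3.3) with the quasi-likelihood test, NSD1 B KO against NSD1 B WT, genotype as the only term. P was adjusted over all 11657 tested genes by the Benjamini-Hochberg method. An exact permutation test of 2 libraries against 2 cannot go below p = 0.333 (two-sided), so none was made. Scripts were tested on simulated data. Alternatives used DESeq2 1.42.0, limma 3.58.1 and a loess trend (span 0.5) with exon length and GC content. Scaling, the low-count filter, the replicate block and the threshold were also varied, and each library was left out in turn. P below 0.05 in the methods was taken as adjusted p.

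The members and lists were chosen with earlier results of these data known. From each list the text names up to 2 of the largest increases and 2 of the largest decreases past the threshold, with a mean of at least 5 CPM and no overlap of the genotypes, and genes with 0 counts in a genotype and at least 50 in the other. Ikzf4, Sdc1, Pstk, Zeb2os and other genes named at 0 or as overlapping or marker genes are not named by this rule. They were chosen once their values had been seen. Some genes that the rule names are not reported here.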

Additional observations from a re-analysis of the deposited data

How the results depend on the processing

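For the 9 tested genes, 115 of the 126 log2 fold changes recomputed under 14 alternatives kept their direction and their side of the threshold. The direction turned for Ikzf1 only, to -0.060 after removal of the length and GC trend and to -0.063 when the replicate block was added to that. Of the other values, 3 for Bcl11a lost the threshold and 6 for Zbtb7a passed it. Genes lower among the 9 came to 1 in place of 2 by the Wald test of DESeq2 and with an adjusted p below 1e-05 and a log2 fold change above 0.5, and to between 1 and 2 with 1 library left out. All genes past the threshold came to 5846 of 8334 when at least 1 CPM was required in all 4 libraries, where fewer genes were tested, and otherwise to between 6665 (the stricter threshold) and 9735. The recounts of the lists were added after the data were seen. In the plasma cell list 3 genes were past the threshold by DESeq2, limma-voom, the filter of 1 CPM, the trend removed with or without the replicate block, and the stricter threshold, and 3 to 6 with 1 library left out. In the BCL6 corepressor list 5 were past it by DESeq2 and with the stricter threshold. In the germinal center list 0 were past it with the filter of 1 CPM, which left 1 gene to test. Medians of other lists moved in size but stayed below 0. The median log2 fold change was -0.42 for the Blimp-1 targets with the filter of 1 CPM. It was -0.10 for the NuRD, SIN3 and CtBP genes with at least 1 count in any library. For the BCL6 corepressors it was -0.61 with the trend removed. The cause was not tested for the other changes.

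The libraries share replicate numbers across the genotypes, but nothing says that a number marks a shared mouse or batch, and the deviations of same-numbered libraries correlated at only 0.071 over genes. With the replicate block 8960 genes were past the threshold, and of the 9 genes again 7, with 5 higher and 2 lower. Of the 9 tested genes, Prdm1 and Bcl6 had the lowest counts in NSD1 B WT, and they had 17 to 112 counts per library over both genotypes.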
